A study of Rattus norvegicus with 100 samples.

Results

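The genes described here are the 73 nuclear genes of mitochondrial ribosomal proteins with a symbol that starts with Mrpl or Mrps and a digit. The rule that picks them uses the name alone, with 1 probe set per gene, the one with the highest mean over all arrays. The family was chosen with earlier results of these data known. All 73 of the 73, among 8843 genes tested, passed the filter of a log2 intensity above 5 in at least 3 arrays, and each of them lay above 5 in all 100 arrays. By symbol, 46 belong to the large subunit (Mrpl) and 27 to the small subunit (Mrps), and the 1 further RefSeq gene of such a name, Mrps10, was not analysed here.

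RNA came from primary rat hepatocytes that were exposed to GW7647, a synthetic agonist of the nuclear receptor PPARα, at 0.001, 0.01, 0.1, 1 or 10 µM, or kept at 0 µM, for 2, 6, 12, 24 or 72 h. The cells were plated on rat collagen IV under a Geltrex overlay in William E medium, and each of the 100 Affymetrix arrays measured 1 culture from 1 of 4 rats (Rs627, Rs628, Rs631, Rs632). The labels name no genetic change, strain or age. They do not state what the 0 µM cultures were given in place of the agonist. The 30 groups held 2 to 4 arrays each. At 2, 6, 12, 24 and 72 h there were 3, 4, 4, 4 and 4 arrays at 1 µM, against 3, 4, 3, 3 and 4 arrays at 0 µM. At 72 h the 0.1 µM and 10 µM groups held 3 arrays each, without Rs627.

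Mitochondria carry their own ribosome, which makes the few membrane proteins of the respiratory chain and ATP synthase that mitochondrial DNA encodes. Its RNAs are transcribed inside the organelle, whereas all its proteins are encoded in the nucleus, made on cytosolic ribosomes and imported. Some descend from bacterial ribosomal proteins and others occur only in mitochondrial ribosomes. In the liver PPARα is best known for switching on genes of fatty acid oxidation, a process that feeds electrons to the respiratory chain. The question asked here was whether the ribosomal genes of the organelle moved with the agonist, at which concentrations and when.

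The members were well expressed. Their mean log2 levels over the 100 arrays ran from 6.97 for Mrps27, a small subunit protein with pentatricopeptide repeats, 7.45 for Mrpl38 and 7.76 for Mrps5, up to 10.53 for Mrpl54, 10.56 for Mrpl53 and 11.09 for Mrpl17. Levels of different probe sets depend on the probes, so this order is of array signals and not of RNA amounts.

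The DNA in front of these genes was read for motifs of factors known from mitochondrial and housekeeping genes. RefSeq promoters (rat build GRCr8, 250 bases before to 50 after the start) matched 59 of the 73 members. They were searched on both strands for the cores of NRF1 (GCGCATGC), ETS factors such as GABP (CCGGAAG) and YY1 (AAGATGGCG), for the E-box CACGTG and for a direct repeat of AGGTCA spaced by 1 base (AGGTCANAGGTCA), the kind of element PPARα binds with its partner RXR. The ETS core stood in 33.9% of the member promoters, against 19.8% of the 7495 promoters of genes tested and 9.22% of all 27457 promoters. The YY1 core stood in 13.6%, against 4.19% and 1.93%, and the NRF1 core in 8.47%, against 5.43% and 2.66%. The ETS and YY1 cores had like shares in the promoters of cytosolic ribosomal proteins (33.3% and 10.0% of 30) and of respiratory chain genes (31.2% and 15.6% of 64), so they do not mark this family alone. The E-box had nearly the same share as among genes tested (10.2%, against 10.1% and 6.65%). The AGGTCA repeat in this exact spelling was in 0.0% of the member promoters, against 0.0133% and 0.0583%, and no match says only that these letters are not in this window. The promoters of 6 members are printed for the 120 bases before the start, 5′ to 3′ on the gene's strand, with the searched motifs in capitals. They belong to members that rose at 72 h, except Mrpl54, the member that fell in the reported fit. Mrps18a lies at chr9:22367381-22367500 (minus strand), Mrps18b at chr20:2842886-2843005 (plus), Mrpl22 at chr10:42845790-42845909 (plus), Mrpl57 at chr15:36086337-36086456 (plus), Mrpl50 at chr5:68668088-68668207 (minus) and Mrpl54 at chr7:9103405-9103524 (plus).
Mrps18a: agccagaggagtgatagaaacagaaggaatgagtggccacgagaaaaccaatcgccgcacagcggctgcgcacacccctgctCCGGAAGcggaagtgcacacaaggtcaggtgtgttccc
Mrps18b: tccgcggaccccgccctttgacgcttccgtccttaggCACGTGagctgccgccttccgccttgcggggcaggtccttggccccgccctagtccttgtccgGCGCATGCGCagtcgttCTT
Mrpl22: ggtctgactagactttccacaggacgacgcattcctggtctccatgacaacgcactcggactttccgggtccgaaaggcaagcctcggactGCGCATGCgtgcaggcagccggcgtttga
Mrpl57: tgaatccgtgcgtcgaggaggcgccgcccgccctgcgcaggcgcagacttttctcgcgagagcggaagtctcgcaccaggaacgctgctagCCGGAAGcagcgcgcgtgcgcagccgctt
Mrpl50: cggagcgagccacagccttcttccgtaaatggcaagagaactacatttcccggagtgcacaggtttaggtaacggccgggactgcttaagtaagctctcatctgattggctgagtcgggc
Mrpl54: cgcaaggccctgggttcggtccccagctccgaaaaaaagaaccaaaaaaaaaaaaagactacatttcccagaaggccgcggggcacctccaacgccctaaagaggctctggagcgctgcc
Mrps18a and Mrpl57 carry an ETS core. Mrpl22 carries an NRF1 core, and Mrps18b carries an E-box, an NRF1 core that reads on both strands, and the first bases of an ETS core that runs past the start. Mrpl50 and Mrpl54 hold none of these motifs in the bases shown. In the searched bases after the start, which are not printed, Mrpl50 has a YY1 core at position 26 and Mrpl54 an E-box at position 16. A YY1 core of Mrps18a begins at the start itself. An NRF1 or ETS core stood in 7 of 12 promoters of members that rose at 72 h and 1 µM, and in 17 of the 47 promoters of the other members. At 10 µM these were 9 of 18 and 15 of 41. Among genes tested 23.9% of promoters had 1 of these cores, and the difference between called and other members was not tested. Mrps34, Mrpl15 and Mrpl43 are named only.

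Some arrays stood apart. The 75th percentile of an array ranged from 6.42 to 7.27, and it lay under 6.6 in 5 arrays. At 2 h this was the 0.1 µM array of Rs631, at 6 h the 10 µM array of Rs627, and at 24 h the 1 µM arrays of Rs631 and Rs632 and the 10 µM array of Rs631, with none at 72 h. Arrays of 1 rat deviated from their group means together (median correlation 0.62, against -0.229 between rats), with an exception at 12 h. There the 0 µM array labelled Rs627 correlated best with the Rs628 arrays (0.757, against -0.02 with its own), and the array labelled Rs628 correlated best with those of Rs627 (0.507, against -0.209 with its own). The 12 h and averaged changes of the members named there are given with and without this pair, while shares of all genes are given with it. Both arrays are of the same group, so an exchange of their rat labels would not alter the reported fit, which leaves the rat out. Without them 0 µM at 12 h rests on Rs631 alone.

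At 72 h, where the cells had been longest with the agonist, 15 of the 73 members rose and 1 fell at 1 µM (limma over all genes, Benjamini-Hochberg adjusted p under 0.05). Among all genes tested 11.3% rose and 15.5% fell in the same comparison, against 20.5% and 1.37% of the members. The median member changed by 0.15 on the log2 scale and the median of all genes tested by -0.06. Of the 73 members 75.3% were higher whatever their p, against 43.3% of all genes. With the rat as a replicate block the counts were 30 higher and 3 lower. Without Rs632 they were 8 and 0, and under median centring 22 and 0. Shares of all genes, here and below, are of the reported fit alone, so counts under the alternatives have no background beside them.

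The largest rise at 1 µM was that of Mrps18a, a relative of the bacterial protein S18 that sits in the large subunit. It stood at 9.46, 9.20, 9.60 and 9.48 at 1 µM in Rs627, Rs628, Rs631 and Rs632, against 8.84, 8.65, 8.95 and 8.90 at 0 µM. Every 1 µM array lay above every 0 µM array, for a log2 change of 0.60 ± 0.15 (SE, adjusted p 0.00112) or 1.52-fold. Its paralog in the small subunit, Mrps18b, stood at 10.00, 10.03, 10.56 and 10.44 at 1 µM, against 9.56, 9.60, 10.01 and 9.76 at 0 µM. Each rat was higher at 1 µM although the groups touched, since 0 µM of Rs631 lay above 1 µM of Rs627, and the change was 0.53 ± 0.17 (adjusted p 0.0144, lost without Rs632). The third paralog, Mrps18c, also in the small subunit, had a change of 0.24 ± 0.19 that did not pass (adjusted p 0.38).

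Large subunit members that rose included Mrpl2, a core protein beside the peptidyl transferase centre. It stood at 8.41, 8.08, 8.36 and 8.36 at 1 µM, against 7.68, 7.46, 7.999 and 7.78 at 0 µM, without overlap, a change of 0.57 ± 0.15 (adjusted p 0.00207). The smallest adjusted p belonged to Mrpl50, a subunit specific to mitochondria. Its levels were 9.92, 9.94, 10.07 and 9.89 at 1 µM, against 9.57, 9.48, 9.63 and 9.50 at 0 µM. These arrays spread little within each group and did not overlap, and the change was 0.41 ± 0.06 (adjusted p 2.96e-07, 1.33-fold). Mrpl15, a core protein of the large subunit, stood at 10.71, 10.37, 10.56 and 10.70 at 1 µM, against 10.21, 9.99, 10.25 and 10.20 at 0 µM. It was higher in every rat by a similar step, 0.42 ± 0.09 (adjusted p 9.51e-05).

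Mrpl30, Mrpl57 and Mrpl43, also of the large subunit, rose by like amounts. Mrpl30 averaged 9.57 ± 0.11 at 1 µM and 9.07 ± 0.26 at 0 µM (SD, n = 4 each), a change of 0.51 ± 0.13 (SE, adjusted p 0.00225). Mrpl57 averaged 8.99 ± 0.07 and 8.59 ± 0.18, a change of 0.41 ± 0.11 (adjusted p 0.00456). Mrpl43 averaged 10.31 ± 0.15 and 9.92 ± 0.13, a change of 0.39 ± 0.09 (adjusted p 0.000582). In these 3 genes every 1 µM array again lay above every 0 µM array. Mrpl44, which has a fold like that of RNase III, and Mrpl22, which lines the tunnel through which the new protein leaves, also rose (0.35 and 0.27); these and Mrps31 and Mrps33 are named because they complete the 15.

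In the small subunit, Mrps34, found only in mitochondrial ribosomes, changed most. It stood at 9.87, 9.77, 10.15 and 9.92 at 1 µM, against 9.39, 9.17, 9.59 and 9.31 at 0 µM, without overlap, a change of 0.56 ± 0.14 (adjusted p 0.00114). Mrps5 and Mrps2, both with bacterial relatives, rose by 0.48 ± 0.17 and 0.44 ± 0.15 (adjusted p 0.0311 and 0.0178). In both genes 1 or more 0 µM arrays lay within the range of the 1 µM arrays, and both calls were lost without Rs627 or without Rs632. Mrps31 and Mrps33 rose by 0.32 and 0.33.

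The one member that fell at 72 h and 1 µM in the reported fit was Mrpl54, another subunit of the large particle without a bacterial relative. It stood at 10.21, 10.12, 10.22 and 10.05 at 1 µM, against 10.41, 10.18, 10.46 and 10.28 at 0 µM. Each rat was lower at 1 µM while the groups overlapped, and the change was -0.18 ± 0.07 (adjusted p 0.0356). The call was lost without Rs627, Rs631 or Rs632, with the arrays at repeated positions left out, with the 2 h and 72 h arrays alone, and under median centring, where the change was -0.11.

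**Figure D1:**
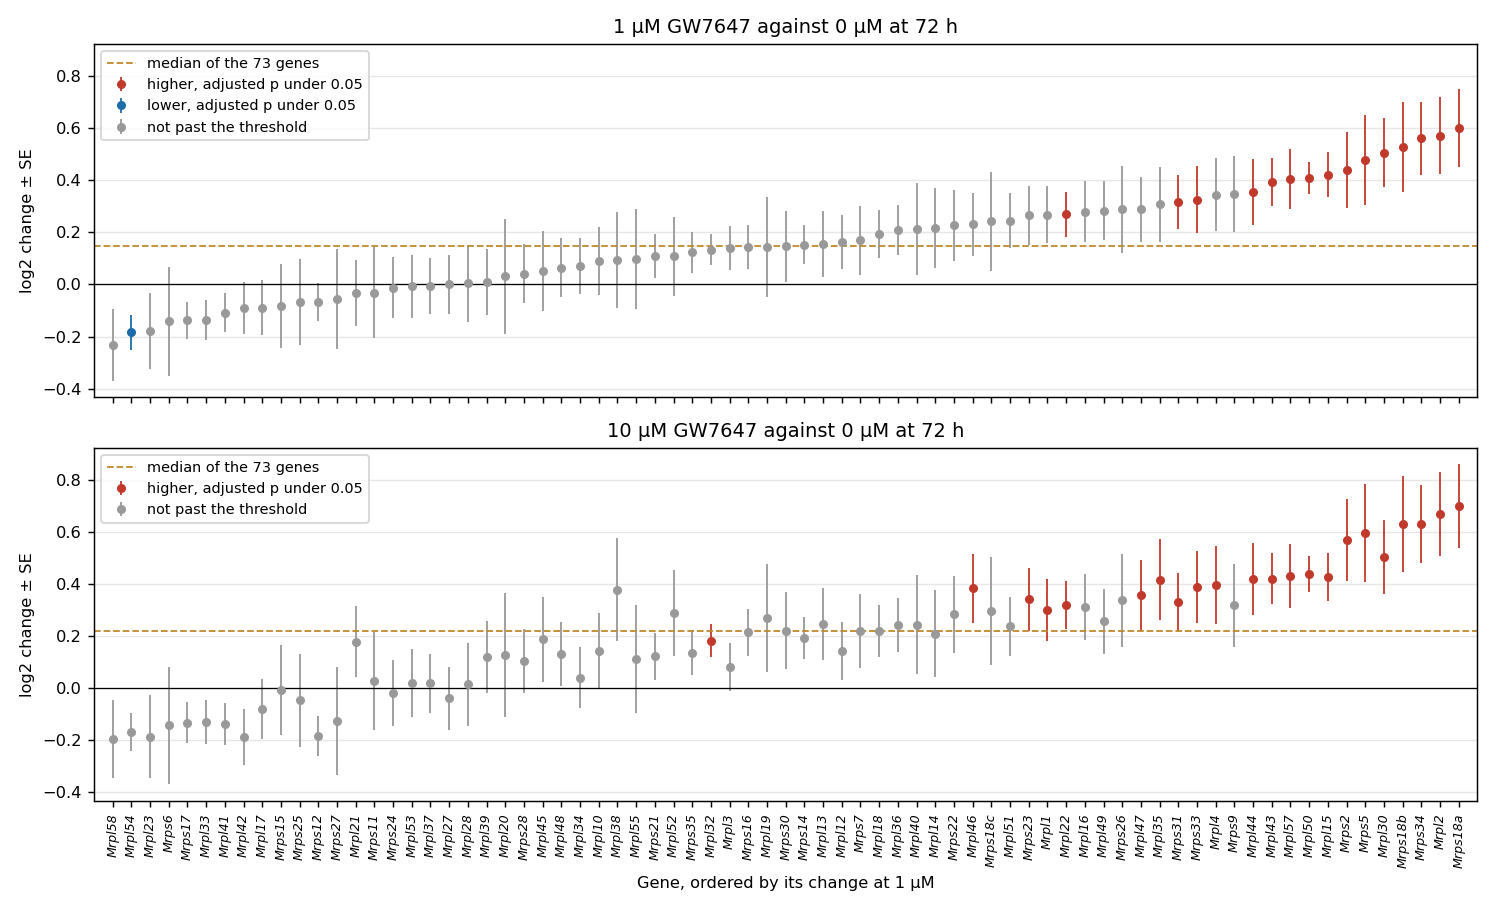
Log2 change of each of the 73 members at 72 h against 0 µM, with its standard error, at 1 µM (upper panel) and 10 µM (lower panel), members in the order of their change at 1 µM and the dashed line at the median of the 73. The changes at 1 µM run from below 0 up to 0.60 for Mrps18a, and the median lies at 0.22 in the lower panel and 0.15 in the upper.

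Several members with other known roles did not pass at 1 µM and 72 h. Mrpl12, part of the stalk that recruits translation factors, changed by 0.16 ± 0.10 (adjusted p 0.258), and Mrps12, at the decoding centre, by -0.07 ± 0.07 (adjusted p 0.55). Mrpl58, a peptidyl-tRNA hydrolase built into the large subunit, had -0.23 ± 0.14 (adjusted p 0.224). Blocking on the rat, as a replicate block, gave it an adjusted p of 0.0316. Mrpl37, Mrpl41 and Mrps30 had -0.01, -0.11 and 0.15 (adjusted p 0.98, 0.302 and 0.476). Of the 3 members with the highest and the 3 with the lowest array signal, Mrpl54 and Mrps5 were called and the others were not: Mrpl17 had -0.09, Mrpl53 -0.01, Mrpl38 0.09 and Mrps27 -0.05.

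Set out by structure, the calls were spread over the particle. Mrps18a and Mrps30 count with the large subunit here, because structures place them there. At 1 µM and 72 h, 9 of 48 large subunit members rose and 1 fell, and 6 of 25 small subunit members rose and 0 fell, with a median of 0.15 in each subunit. Of the 31 members with a mitochondrial (m) systematic name 9 rose and 1 fell (median 0.21). Of the 42 with a bacterial-type (u or b) name 6 rose and 0 fell (median 0.14). Mrps18a and Mrps18b count among the m names, although Mrps18a is a relative of bacterial S18, so these classes are of names and not of descent. At 10 µM 11 members of each of these classes rose. The difference between the classes was not tested.

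At 10 µM and 72 h, 22 members rose and 0 fell in the limma fit (30 higher and 2 lower at an unadjusted p under 0.05). Across all genes 12.5% rose and 15.6% fell, against 30.1% of the members that rose. The median member changed by 0.22, and that of all genes by -0.04, with 79.5% of the members and 45.6% of all genes higher. With the replicate block of the rat 34 rose and 2 fell. All 15 members that rose at 1 µM were among the 22. The 1 and 10 µM comparisons share their 0 µM arrays. Without Rs632 the count at 10 µM was 3 (Mrps18a, Mrpl50 and Mrpl43), and with the arrays whose label ends in 2 left out it was 12.

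Mrps18a led again, at 9.54, 9.52 and 9.55 at 10 µM in Rs628, Rs631 and Rs632, against the 0 µM levels given above. These 3 arrays nearly coincide and lie above all 0 µM arrays, a change of 0.70 ± 0.16 (adjusted p 0.00039, 1.63-fold). Mrps34 stood at 9.97, 9.90 and 10.12 at 10 µM and changed by 0.63 ± 0.15 (adjusted p 0.000653). Mrpl50 stood at 10.06, 9.88 and 10.03 and changed by 0.44 ± 0.07 (adjusted p 2.92e-07). Neither gene had a 10 µM array within the range of its 0 µM arrays. Mrpl2, Mrps18b, Mrps5 and Mrps2 rose by 0.67, 0.63, 0.60 and 0.57, each a larger value than at 1 µM. The difference between 10 and 1 µM was not tested.

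Counted by overlap alone, 14 members (19.2%) at 1 µM and 25 members (34.2%) at 10 µM had every treated array above every 0 µM array at 72 h. Among all genes tested this held for 11.7% and 16.4%. The reverse, every treated array below every 0 µM array, held for Mrps17 at 1 µM (chosen after its values were seen) and for 0 members at 10 µM, against 17.1% and 20.5% of all genes. Within rats, 45 of the 73 members were higher at 1 µM in all 4 rats and 5 were lower in all 4, against 22.8% and 34.9% of all genes. At 10 µM, with 3 rats, 38 were higher in each and 4 lower in each, against 26.9% and 35.4% of all genes.

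**Figure D2:**
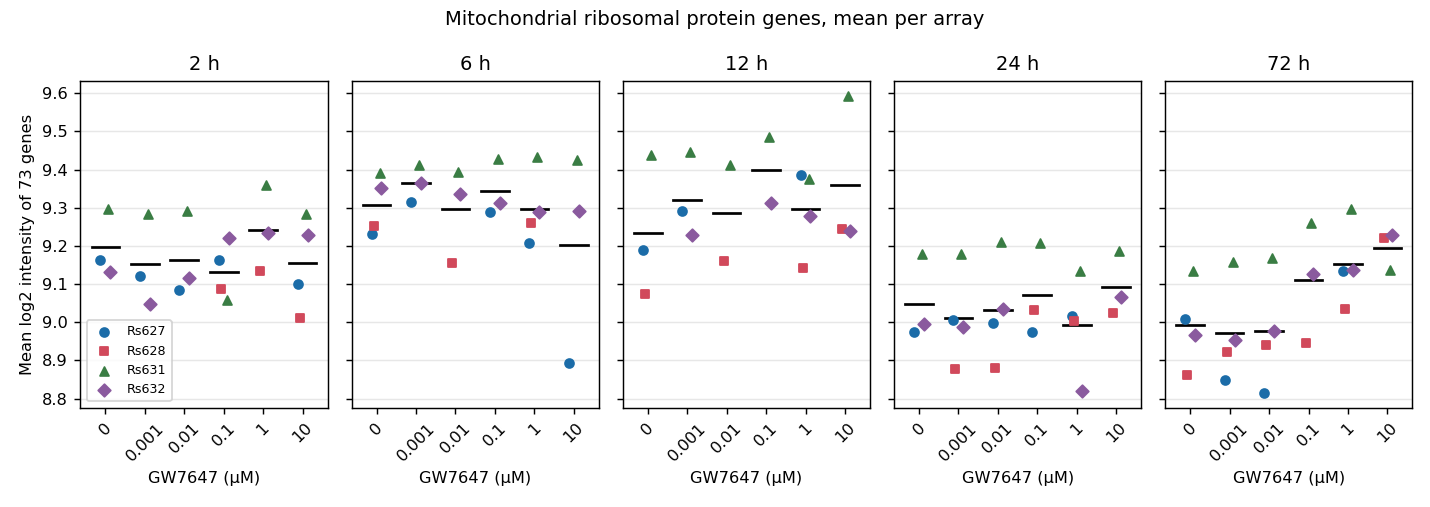
Mean log2 level of the 73 members in each of the 100 arrays, by concentration (µM, in steps), 1 panel per time, a marker shape per rat, and a black line through the group means. At 72 h the line climbs to 9.15 at 1 µM and 9.20 at 10 µM, against 8.99 at 0 µM, and at 24 h it stands at 8.99 at 1 µM, against 9.05 at 0 µM.

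The mean level over the 73 members puts the size of the change in view. At 72 h it was 8.99 ± 0.11, 8.97 ± 0.13, 8.98 ± 0.15, 9.11 ± 0.16, 9.15 ± 0.11 and 9.20 ± 0.05 (SD over arrays, n = 4, 4, 4, 3, 4 and 3) at 0, 0.001, 0.01, 0.1, 1 and 10 µM. Relative to the median of the tested genes in each array it was 1.499 ± 0.11, 1.598 ± 0.17, 1.69 ± 0.18, 1.75 ± 0.21, 1.73 ± 0.15 and 1.75 ± 0.10, so on that scale it was already higher at 0.001 and 0.01 µM, within the spread of the arrays. On the deposited scale the step between 1 and 0 µM was close to the spread between rats, and within rats it was even: 0.13, 0.18, 0.16 and 0.17 in Rs627, Rs628, Rs631 and Rs632. At 10 µM it was 0.36, 0.00 and 0.26 in Rs628, Rs631 and Rs632, so that Rs631 showed no change of the mean there. The rats themselves differed: over all their arrays the mean was 9.10, 9.06, 9.30 and 9.16.

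Along the concentrations at 72 h, 0 members were called at 0.001 µM (0 at an unadjusted p under 0.05) and 0 at 0.01 µM (1 higher and 0 lower at an unadjusted p under 0.05). All genes had 0.0% higher and 0.0% lower at 0.001 µM, and 0.396% and 0.0226% at 0.01 µM. At 0.1 µM 4 members rose and 0 fell in the limma fit (13 and 1 at an unadjusted p under 0.05), which is 5.48% of the members, against 4.0% of all genes higher and 4.82% lower. The 4 were Mrpl2, Mrpl15, Mrpl50 and Mrps34, and all 4 also rose at 1 and 10 µM. At 0.1 µM 17 rose and 1 fell with the replicate block. Without Rs627, Rs631 or Rs632 the count was 1, 2 and 1, and it was 1 with the 2 h and 72 h arrays alone or without the arrays at repeated positions.

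On the scale centred on the median of each array the median member changed by 0.11, 0.19, 0.25, 0.22 and 0.27 at 0.001, 0.01, 0.1, 1 and 10 µM, and no member passed at 0.001 or 0.01 µM there either. On the deposited scale, the changes of the leading members at 0.001, 0.01, 0.1, 1 and 10 µM show the course. Mrps34 had 0.07, 0.19, 0.48, 0.56 and 0.63. Mrpl50 had 0.04, 0.13, 0.36, 0.41 and 0.44, and Mrpl2 had 0.06, 0.14, 0.53, 0.57 and 0.67. In these 3 genes the value at 0.1 µM lay nearer to that at 1 µM than to that at 0.01 µM, a comparison that was not tested. Mrps18a had -0.02, 0.01, 0.37, 0.60 and 0.70, with 0.1 µM not called (adjusted p 0.137), and Mrpl15 had 0.09, 0.11, 0.30, 0.42 and 0.43.

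**Figure D3:**
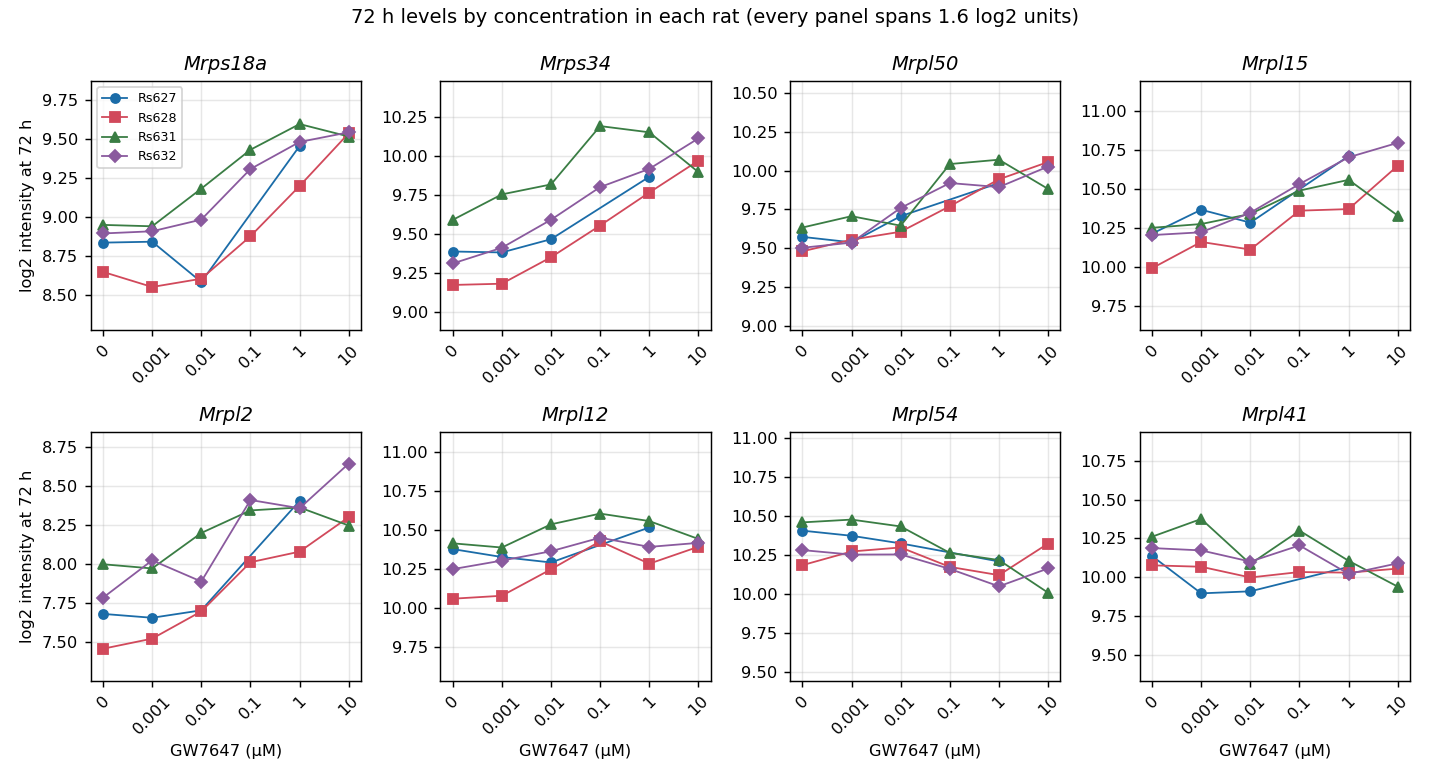
Log2 level at 72 h by concentration (µM) for 8 members (Mrps18a, Mrps34, Mrpl50, Mrpl15, Mrpl2, Mrpl12, Mrpl54 and Mrpl41), 1 point per array joined within a rat, each panel spanning an equal range of log2 units. The first 5 lie higher from 0.1 or 1 µM on, whereas Mrpl54 lies lower at 1 µM, and Mrpl12 and Mrpl41 were not called at 1 or 10 µM.

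At earlier times little passed in the fit that leaves the rat out. At 1 µM, 0 members were called at 2 h (0 at an unadjusted p under 0.05), 0 at 6 h (0 higher and 1 lower at that level) and 0 at 12 h (2 and 2), all in limma. The background at these times was 0.351% higher and 0.0226% lower, 1.73% and 0.305%, and 3.96% and 1.45%. The members' medians were 0.05, -0.02 and 0.05. The 12 h value includes the pair of 0 µM arrays that go against their labels, and an exchange of these labels would not alter it. Without the pair the median was -0.15, with a single 0 µM array left. That array is of Rs631, the rat with the highest mean level, so differences between rats enter this value. In the fit with the replicate block and the pair included 4 members rose at 12 h, and a block fit without the pair was not run.

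At 24 h and 1 µM Mrpl49 and Mrpl15 rose (2.74% of the members) and Mrpl41 fell (1.37%). Among all genes 7.06% rose and 22.6% fell. The median of all genes moved by -0.23 and that of the members by -0.05, which lies closer to 0. Mrpl49, a subunit specific to mitochondria, stood at 8.29, 8.39, 8.15 and 7.92 at 1 µM, against 7.88, 7.92 and 7.73 at 0 µM in Rs627, Rs631 and Rs632, a change of 0.35 ± 0.12 (adjusted p 0.0283). Mrpl15 stood at 10.54, 10.47, 10.48 and 10.68, against 10.11, 10.44 and 10.26, a change of 0.27 ± 0.09 (adjusted p 0.0235). All 1 µM arrays of these 2 genes lay above all 0 µM arrays. The share of all genes without overlap was not counted at 24 h, which holds for Mrpl41 below as well. Mrpl41, a subunit that has also been linked to cell cycle arrest in human cells, stood at 10.03, 10.04, 10.03 and 9.73, against 10.28, 10.39 and 10.27, without overlap, a change of -0.36 ± 0.08 (adjusted p 0.000534).

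These 24 h calls depend on the scale and on single rats. Relative to the shift of all genes (median centring) Mrpl41 had -0.07 and was not called, and 17 members were higher and 0 lower. Centring moves the changes of all genes upward in this comparison, and the share of all genes called under it was not counted. With the replicate block 8 were higher and 9 lower. Without Rs627, Rs628 or Rs632 the count was 1, 6 and 0, and without Rs631 it was 1 higher and 2 lower. At 24 h the 75th percentile was 6.69 ± 0.26 at 1 µM (n = 4), with 2 of the arrays of low signal, and 6.99 ± 0.11 at 0 µM (n = 3), and its part in the result was not tested.

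**Figure D4:**
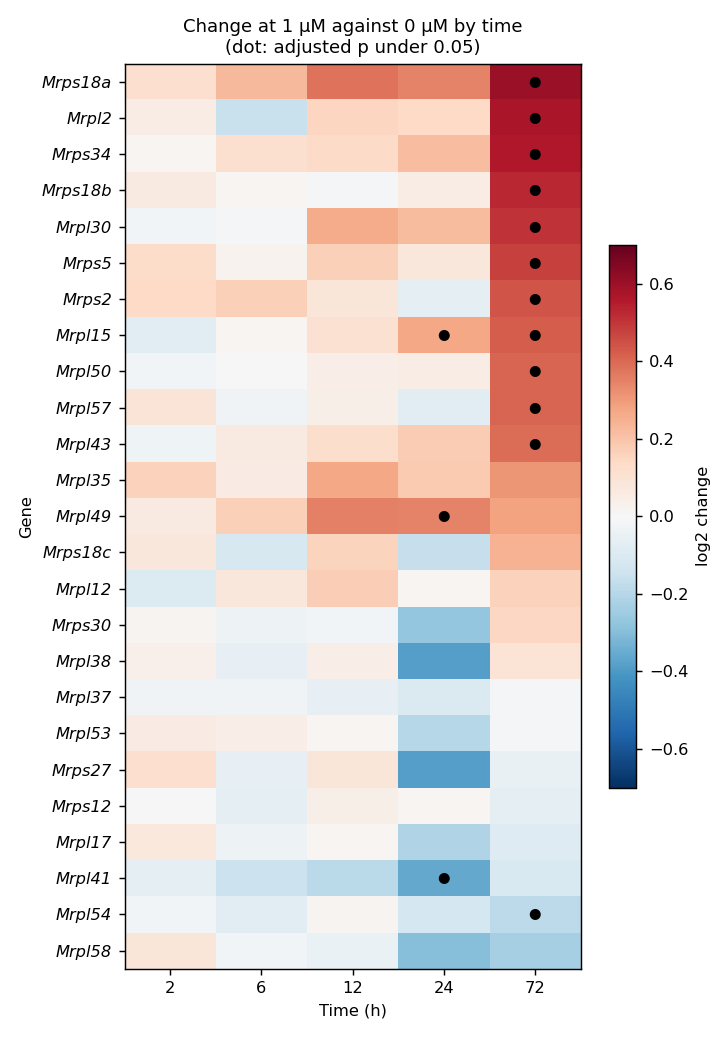
Heat map of the log2 change of 25 members at 1 µM against 0 µM at 2, 6, 12, 24 and 72 h, with a dot where the adjusted p was under 0.05. The 12 h column includes the 0 µM pair that goes against its labels; dots are absent at 2, 6 and 12 h, 3 stand at 24 h, and 12 stand at 72 h.

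Over time Mrps18a had changes of 0.12, 0.23, 0.38, 0.35 and 0.60 at 2, 6, 12, 24 and 72 h, called at 72 h. Its 12 h value was 0.09 without the 0 µM pair at 12 h that goes against its labels. Mrpl49 had 0.06, 0.17, 0.35, 0.35 and 0.28, called at 24 h, and its 12 h value without the pair was 0.41 and not called. The difference between the 72 h and the 2 h change was tested in the same model. In it 3 members (4.11%) passed, all upward (8 upward and 0 downward at an unadjusted p under 0.05). Over all genes 4.4% passed upward and 4.26% downward, so the share of members was close to the background. The 3 members were Mrpl15 (0.49 ± 0.13, adjusted p 0.00952), Mrpl50 (0.43 ± 0.10, adjusted p 0.00139) and Mrpl43 (0.42 ± 0.14, adjusted p 0.0448). Mrpl50, for instance, stood at 9.69, 9.72 and 9.55 at 1 µM and 2 h (arrays of Rs628, Rs631 and Rs632). At 0 µM and 2 h it stood at 9.73, 9.61 and 9.68 (arrays of Rs627, Rs631 and Rs632). The groups overlapped at 2 h and were apart at 72 h. The 2 h groups differ in 1 rat, so differences between rats enter the 2 h change in this fit. The replicate block gave 10, and without Rs627 or Rs632 the count was 1 and 0.

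Averaged over the 5 times, 0 members were called at 0.001 µM (0 at an unadjusted p under 0.05) and 0 at 0.01 µM (0 higher and 1 lower at that level), against 0.0% higher and 0.0% lower, and 0.656% and 0.0339% of all genes. At 0.1 µM Mrps18a, Mrpl49 and Mrpl50 rose, by 0.24, 0.21 and 0.10. They are 4.11% of the members, against 6.34% of all genes higher and 7.94% lower. Without the 0 µM pair at 12 h, which leaves Rs631 alone in that group, the changes of these 3 genes were 0.18, 0.22 and 0.10. At 1 µM 8 members rose and 1 fell, against 11.7% and 23.6% of all genes, and at 10 µM 10 rose and 1 fell, against 11.7% and 27.7%. Mrps18a rose by 0.34 and 0.35 at 1 and 10 µM, Mrpl49 by 0.24 and 0.25, Mrps34 by 0.21 and 0.22 and Mrpl35 by 0.20 and 0.21. Mrpl41 was the member that fell at both, with changes of -0.17 and -0.18. Without the pair, the values at 1 and 10 µM were 0.28 and 0.29 for Mrps18a and 0.25 and 0.26 for Mrpl49. Those of Mrpl41 were -0.20 and -0.20. For Mrps34 the values were 0.17 and 0.18 and for Mrpl35 0.14 and 0.15, smaller than with the pair.

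The averages with the replicate block gave 0 higher and 1 lower at 0.01 µM, 9 higher and 1 lower at 0.1 µM, 20 and 3 at 1 µM, and 21 and 3 at 10 µM. No block fit was run without the 12 h pair. In the fit that leaves the rat out the count was 4 and 5 at 1 µM, and 4 and 3 at 10 µM, without Rs627 and without Rs632. At 0.1 µM it was 1, 6, 0 and 0 without Rs627, Rs628, Rs631 and Rs632.

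Without the agonist most members had lower values at 72 h than at 2 h. At 0 µM the mean over the 73 members differed by -0.15, -0.16 and -0.16 between 72 h and 2 h in Rs627, Rs631 and Rs632, at 8.99 ± 0.11 at 72 h (n = 4) and 9.20 ± 0.09 at 2 h (n = 3). The median member changed by -0.21 and the median of all genes by -0.17. The 72 h group includes Rs628, which has no 0 µM array at 2 h, so differences between rats enter this comparison. Higher values at 72 h were found in 1.37% of the members, against 18.1% of all genes. Mrpl54 and Mrpl41, 2.74% of the 73 members, passed the limma test and fell, and 0 rose (0 higher and 17 lower at an unadjusted p under 0.05). Among all genes 0.226% were higher and 3.18% lower.

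Mrpl54 stood at 10.41, 10.18, 10.46 and 10.28 at 72 h, against 10.71, 10.64 and 10.63 at 2 h, a change of -0.32 ± 0.07 (adjusted p 0.00547). Mrpl41 stood at 10.14, 10.08, 10.26 and 10.19, against 10.44, 10.46 and 10.42, a change of -0.27 ± 0.08 (adjusted p 0.0398). In both genes every 72 h array lay below every 2 h array, and the share of all genes for which this held was not counted. As many as 11 members fell with the replicate block. Without Rs627, Rs628 or Rs632 the count was 0, 1 and 0, and after median centring or quantile normalization it was 0, with member medians of -0.05 and -0.03.

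The members varied together within groups. For this the mean of each group of 1 time and concentration was subtracted, so changes with time or agonist do not enter. The median correlation of a member with the mean of the others over the 100 arrays was then 0.773. For the 8770 other genes with the family mean it was 0.167. This describes arrays that share rats and overall signal. Mrps6 (-0.60) and Mrps21 (-0.06), named after their values were seen, were the 2 members below 0. Mrpl50, Mrpl43 and Mrpl15, the genes whose change differed between 72 and 2 h, had 0.26, 0.23 and 0.35.

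Among the 73 members 20 had more than 1 probe set. Of their 26 further probe sets 18, of 15 members, passed the filter, and 15 of the 18 had the sign of the chosen probe set at 72 h and 1 µM. The second set of Mrpl50 had 0.56 and was not called (adjusted p 0.0816). In 4 members the further set was called where the chosen one was not, Mrpl40 (0.68), Mrps18c (0.48), Mrps9 (0.46) and Mrps14 (0.38). The 3 of opposite sign belonged to Mrpl48 (-0.29), Mrpl52 (-0.19) and Mrpl51 (-0.02), and none of these 3 was called. Members outside the naming rule in these sentences were chosen after their values were seen.

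Other parts of the mitochondrial expression machinery were read from lists at 72 h and 1 µM. In that comparison 11.3% of all genes tested rose and 15.5% fell, which is the background for all lists and markers that follow. Of 22 genes of mitoribosome assembly and rRNA modification 2 rose and 0 fell (median 0.10): Mterf4 (0.78), which brings a methyltransferase to the large rRNA, and Ddx28 (0.65), a helicase of large subunit assembly. Of 12 translation factors 3 rose and 0 fell (median 0.30): Lrpprc (0.47), which stabilises mitochondrial mRNAs, Mtrfr (0.51), a rescue factor, and Gfm1 (0.35), an elongation factor. The signal of Mtrfr was low, with means of 5.57 at 1 µM and 5.06 at 0 µM, near the filter's log2 level of 5. Of 16 genes of tRNA charging Iars2, the isoleucine enzyme, rose (0.86). The 5 mitoribosomal proteins with other names gave 0 calls (Dap3 had -0.17, adjusted p 0.394). In the assembly, tRNA charging and other-name lists rises were no more frequent than among all genes.

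Of 18 genes of mitochondrial DNA and its transcription 5 rose and 0 fell (median 0.22). These included Tfam (0.92), which packages the DNA and starts transcription, Tfb2m (0.65), its partner at the promoters, Hsd17b10 (0.90), a subunit of the RNase that trims tRNAs, and Polg (0.77), the DNA polymerase. The polymerase of transcription, Polrmt, and the rRNA methyltransferase Tfb1m had 0.01 each and did not pass. Of 11 regulators of mitochondrial biogenesis Ppargc1b (0.67) and Ppara (0.63) rose, and Ppargc1a (-1.17) and Myc (-0.44) fell. Esrra (0.35), Gabpa (0.17) and Nrf1 (0.15) did not pass. Several of these signals lay near the filter's log2 level of 5. Ppargc1a averaged 4.54 ± 0.80 at 1 µM and 5.71 ± 0.58 at 0 µM (SD). Ppara averaged 5.19 and 4.56, Ppargc1b 6.05 and 5.38, and Nrf1 5.07 and 4.92, so these values rest on low signals. The calls among regulators were 2 in place of 4 without Rs627, Rs628 or Rs632, and those among translation factors 1 in place of 3 without Rs627 or Rs632. Without Rs632, 1 of the assembly genes was called.

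Import brings nuclear-encoded proteins, ribosomal ones among them, into the organelle, and the respiratory chain holds the products of the mitochondrial ribosome. Of 34 genes of import and proteases 16 rose and 1 fell, among them Timm10b (1.20) and Grpel1 (0.68) of the import route and Clpx (1.33), an unfoldase. Of 70 respiratory chain and ATP synthase genes of the nucleus 24 rose and 2 fell (median 0.16), with Ndufa7 at 0.49 and Uqcrfs1 at 0.40, and Atp5if1, the inhibitor of ATP synthase, at -0.85. That count of 26 was 11 and 12 without Rs627 and Rs632. All 19 genes of mitochondrial fatty acid oxidation rose (median 1.40, Acadm 1.93), a list known to hold PPARα targets.

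The cytosolic ribosomal proteins went the other way on the deposited scale: 24 of 35 fell and 0 rose (median -0.18), with Rplp0 at -0.28 and Rps3 at -0.33. Under median centring 1 of the 35 was called, and without Rs627 or Rs632 it was 7 and 9. Among the mitochondrial ribosomal proteins 22 rose and 0 fell under median centring.

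**Figure D5:**
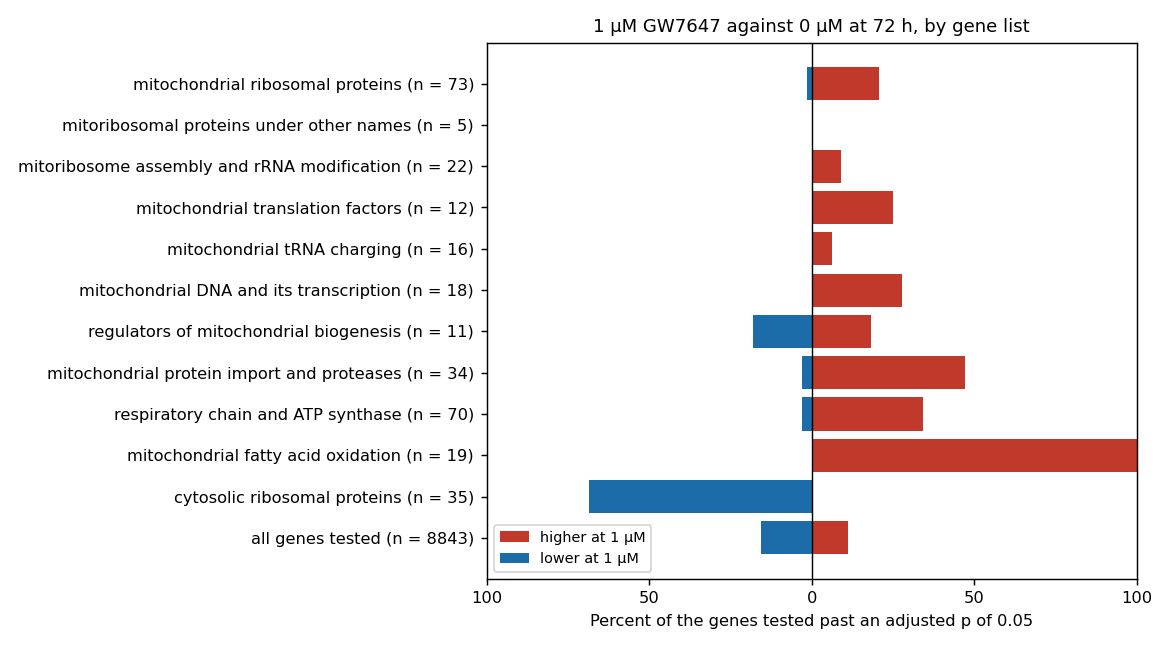
Percent of the tested genes of each of 11 lists, and of all genes tested, that rose or fell at 72 h and 1 µM (adjusted p under 0.05). The mitochondrial ribosomal proteins stand at 20.5% higher and 1.37% lower, against 11.3% and 15.5% of all genes, and fatty acid oxidation and the cytosolic ribosomal proteins mark the ends.

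Markers of cell types and of RNA state were read beside these results. Of 9 hepatocyte markers 0 rose and 4 fell at 72 h and 1 µM, and their summed level was 15.05 to 15.18 at 1 µM, against 15.40 to 15.46 at 0 µM. Of 7 macrophage markers 5 lay at or under the floor of 5 in both groups, with a summed level of 9.77 to 10.27 at 1 µM, against 8.95 to 9.69 at 0 µM, and Cd14 rose (0.83). Of 7 stellate cell markers 2 fell (summed level 6.84 to 7.25, against 7.28 to 7.58), all 5 endothelial markers were at or under the floor, and 0 of 4 bile duct markers tested were called (summed level 9.66 to 10.33, against 9.84 to 11.31). In such bulk cultures a change in the mix of cells and a change of RNA per cell cannot be told apart. The difference between the 3′ and 5′ probe sets of Actb, a sign of RNA state, was 1.97 ± 0.15 at 1 µM and 1.90 ± 0.13 at 10 µM, against 1.66 ± 0.19 at 0 µM at 72 h. For Gapdh it was 0.337 and 0.358, against 0.348. The part of markers and RNA state in the results was not tested.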

How the data were processed

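Total RNA was labelled with a 3′ in vitro transcription kit and hybridised to Affymetrix rat arrays, per the labels' protocols. The authors deposited log2 intensities, 1 per probe set and array, used here as they stood. The submitters' processing notes name GCRMA and Partek and give no version or order of steps. Of 31139 probe sets 19069 had 1 gene symbol in the platform annotation, 572 several and 11498 none. Each gene took the probe set of highest mean (13439 genes), and 8843 genes whose log2 value passed 5 in 3 or more arrays were tested. Arrays hold no counts, and their number limits the precision.

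A model of 30 group means over 100 arrays (70 residual degrees of freedom) was fitted with limma 3.58.1 in R 4.3.3, two-sided, with Benjamini-Hochberg adjustment over all genes tested in each of 16 comparisons, at 0.05. Replicates are cultures from separate rats, so arrays are paired by animal, per the labels, and residuals bore this out (nearest array of the same rat for 95 of 100). Reported values come from the fit that leaves the rat out, so they do not use this pairing. A fit with the rat as a replicate block is an alternative, and its counts are given beside the reported ones. Figures and summaries used Python 3.11.15, pandas 2.3.3 and matplotlib 3.10.9. Plate positions in the labels repeat in 23 arrays, and 5 array labels end in 2, so both sets were left out in turn, since no plate or batch is named.

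Members named singly are up to 10 rises and falls by size per comparison, the 3 highest and 3 lowest by level, and those with a known second role. Genes of the other lists are up to 4 by p per comparison and fixed regulators. The members and the lists were chosen with earlier results of these data known. Promoter sequences are from RefSeq (GRCr8).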

Additional observations from a re-analysis of the deposited data

Results flagged for a closer look

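Single arrays lay far from the rest of their group in 3 of 87 groups of 4 arrays looked at, for the genes named, by Dixon's criterion, which chance meets in about 1 group in 20. Mrpl2 stood at 8.08 in Rs628 at 72 h and 1 µM, against 8.36 to 8.41 in the other rats, and that value still lay above all 0 µM arrays. Mrpl41 stood at 9.731 in Rs632 at 24 h and 1 µM, against 10.03 to 10.04 in the other rats, on an array of low signal. Mrpl58 stood at 9.017 in Rs631 at 72 h and 1 µM, against 8.48 to 8.56 in the other rats, and only Rs631 of the 4 rats had a 1 µM level that close to its 0 µM level (9.05).

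The change at 1 µM differed between 72 h and 2 h, by the limma test of the difference itself, in 3 members. These were Mrpl15 by 0.494 (adjusted p 0.00952), Mrpl43 by 0.422 (adjusted p 0.0448) and Mrpl50 by 0.43 (adjusted p 0.00139) on the log2 scale. They are 4.11% of the members, close to the 4.4% of all genes that passed upward.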

How the results depend on the processing

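Of the counts of called members over comparisons and alternatives, 159 stayed within 1.5 times the reported count, 57 moved and 3 changed their balance, and none of the named members' changes reversed its sign while called. The causes were not tested. The rat as a replicate block gave 4 calls at 1 µM and 12 h, 17 at 24 h (8 higher, 9 lower), 33 at 72 h, 18 at 0.1 µM and 36 at 10 µM at 72 h, 1, 10, 23 and 24 for the averages at 0.01, 0.1, 1 and 10 µM, 11 for 72 h against 2 h and 10 for the difference between the times. Median centring gave 17 at 24 h, 8 at 0.1 µM and 72 h, 5, 21 and 31 for the averages at 0.1, 1 and 10 µM, 0 for 72 h against 2 h and 1 for the difference. Its medians were 0.25 at 24 h, 0.19 and 0.25 at 0.01 and 0.1 µM at 72 h, and -0.047 for 72 h against 2 h. Quantile normalization gave 6 at 24 h, 28 at 1 µM and 9 at 0.1 µM at 72 h, 10, 20 and 21 for those averages, 0 for 72 h against 2 h (median -0.032) and 6 for the difference. The arrays of the compared times alone gave 1 at 0.1 µM and 72 h and 1 for 72 h against 2 h. Without the arrays at repeated positions the counts were 1 at 0.1 µM and 72 h, 16 and 18 for the averages at 1 and 10 µM and 4 for 72 h against 2 h, which was also 4 with no filter and with the low-signal arrays removed. Without the arrays whose label ends in 2 the count at 10 µM was 12. Every probe set gave 1 at 12 h, and the 12 h pair left out gave a 12 h median of -0.15 and 5 for the average at 10 µM. Leaving out 1 rat gave 0 to 1 at 12 h, 0 to 6 at 24 h, 8 to 17 at 72 h, 1 to 3 at 0.1 µM and 3 to 31 at 10 µM at 72 h, 0 to 6, 4 to 11 and 3 to 12 for the averages at 0.1, 1 and 10 µM, 0 to 2 for 72 h against 2 h and 0 to 2 for the difference. At 24 h the balance of calls turned in 3 lists: assembly had 1 call under median centring and without Rs631, translation factors had 1 without Rs627, and tRNA charging had 3 under median centring and under quantile normalization. Signal over background limited no member, since all stood above the floor in every array.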
